A study of Mus musculus with 6 samples.

Results

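The kidney of a late treated 5-month Alport mouse was compared with a wild-type kidney, to see which genes of the disease stood off the wild-type level after late treatment. UMIs (unique molecular identifiers, which count captured RNA molecules) of all spots were summed in each library, and a gene entered the comparison with at least 20 scaled CPM, that is UMIs set to a common library total and corrected for library composition, in 1 of the 2 libraries. Of the 32285 genes listed, 6631 met this rule. The last gene inside the rule was Sox4, at the limit of 20 scaled CPM in the late treated library and at 11.42 in WT, and the first outside was Gon4l, with 15.71 in the late treated library and 19.99 in WT.

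The late treated library (Late treated 5m AS) came from a 5-month mouse of genotype B6.Cg-Col4a5tm1Yseg given hEV, an abbreviation that the labels do not spell out. The early treated library (Early treated 5m AS) had the same genotype, age and agent, and the libraries 5m AS and 2m AS had that genotype at 5 and 2 months with no treatment label, and 5m AS is called untreated here. Neither the dose, the days of treatment nor the number of mice behind a library is given in the sources used here. The WT library carried the genotype label B6C57, with no age given. A sixth library mixed WT and heterozygous females and served only as another control. The allele is known as an engineered premature stop in the X-linked gene Col4a5 and is present in every cell. All kidneys were frozen, cut at 10 µm and placed on Visium slides, on which each barcoded spot captures RNA from the several cells above it.

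Alport syndrome is an inherited disease of type IV collagen. The alpha 3, alpha 4 and alpha 5 chains, encoded by Col4a3, Col4a4 and Col4a5, form the mature network of the glomerular basement membrane, and loss of any of these chains removes that network. The glomerulus then leaks protein, and the tubules and the space between them follow with injury, influx of macrophages, activation of fibroblasts and scarring. Injured proximal tubule cells are known to lose transport and metabolic enzymes and to make proteins such as Kim-1, the product of Havcr1, and lipocalin 2.

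Each group was 1 library, so no difference has a replicate check and no test was run. Ratios carry a 95% exact interval for counting error alone. The late treated library held 57325650 UMIs over 2892 spots and WT 79699180 over 4093, with 18187 UMIs in the median spot of the late treated library and 17790 in that of WT. Both carried the Y-linked gene Ddx3y, at 27.2 scaled CPM in the late treated library and 22.9 in WT. The mitochondrial share of UMIs was 8.32% in the late treated library and 11.9% in WT. Space Ranger 1.3.1 had counted the late treated library and version 1.2.1 the WT library, so group and software version cannot be told apart, nor can group and the age of the WT mouse. The 2 libraries shared 2503 spot barcodes, which are positions on the slide and not cells.

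The median log2 ratio over the 6631 genes was -0.20, with quartiles of -0.44 and 0.04. Plain CPM without composition factors moved this median to 0.28, and a median-of-ratios scaling gave -0.16. A gene or list is therefore best read against the all-gene median of its own scale. Small differences changed side between these scales.

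Col4a5, the gene of the genotype, stood at 5.57 scaled CPM in the late treated library, 5.52 in the early treated, 3.39 in 5m AS, 6.54 in 2m AS and 11.9 in WT. All 4 Alport libraries were thus below WT, and the late treated one had a ratio of 0.470. RNA counted at the 3' end does not show the mutation itself. Col4a3 had 75.3 scaled CPM in the late treated library, 55.6 in 5m AS and 62.1 in WT. Col4a4 had 105 in the late treated library, 62.6 in 5m AS and 107 in WT. On the main scale both partner chains were within 0.32 of WT in log2 after late treatment, at 0.28 for Col4a3 and -0.02 for Col4a4. With plain CPM these log2 ratios were 0.73 and 0.43, outside that limit. Col4a3 was near WT in 5m AS too, at a ratio of 0.896.

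Most genes sat close to WT, and the 2-fold differences split into 98 higher genes (1.48% of 6631) and 198 lower ones (2.99%). Untreated 5m AS against the same WT had 330 higher genes (4.86% of 6795) and 283 lower ones (4.16%). With plain CPM the late treated library had 314 higher and 31 lower genes, so the share of higher among called genes was 33.1% on the main scale and 91.0% on the plain one. The scaling without mitochondrial genes gave 118 higher and 151 lower, a share of 43.9%. The count on either side thus moved with the scale.

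**Figure D1:**
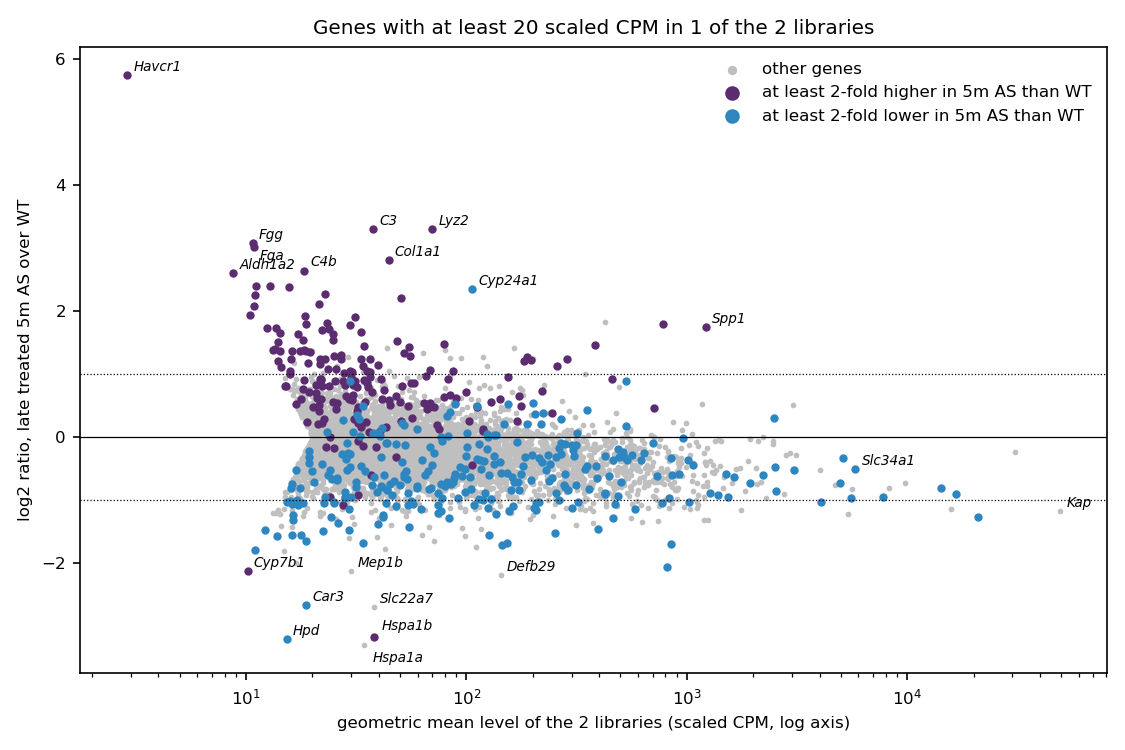
Each point is 1 of the 6631 genes, with the geometric mean level of the 2 libraries (scaled CPM, log axis) against the log2 ratio of late treated 5m AS over WT. Purple points are genes at least 2-fold higher, and blue points genes at least 2-fold lower, in untreated 5m AS than in WT. Dotted lines mark 2-fold, and Havcr1 stands apart at the top with a log2 ratio of 5.74.

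The disease genes were taken as those 2-fold off WT in untreated 5m AS. Of the 330 higher ones, 145 (43.9%) were still at least 2-fold higher in the late treated library, 113 were less than 2-fold but more than 0.32 higher on the log2 scale, 48 were near WT, that is within 0.32 of it on that scale, and 24 lay below that. Only 186 of the 330 reached 20 scaled CPM in the late treated or the WT library, of which 79 were still 2-fold higher, and the rest entered through 5m AS, where they were high. Of these Ighg2c had 0.194 scaled CPM in the late treated library, 23.3 in 5m AS and none in WT. The median of the 330 log2 ratio was 0.86 in the late treated library, against 1.77 in 5m AS. Of the 283 lower ones, 67 (23.7%) were still at least 2-fold lower, 138 were less than 2-fold but more than 0.32 lower on the log2 scale, 65 were near WT and 13 were above. Their median was -0.64 in the late treated library, against -1.25 in 5m AS. The genes were chosen by their 5m AS ratio, so medians nearer 0 in the late treated library are in part built into that choice. Both ratios share the WT library, so the counts describe these libraries only. In RNA summed over a section, fewer cells of a type and less RNA per cell cannot be told apart. Disease genes taken against the mixed library gave 125 of 361 (34.6%) still higher and 50 of 362 (13.8%) still lower than WT. The late treated library itself had 215 genes higher (3.24%) and 570 lower (8.58%) than the mixed one.

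**Figure D2:**
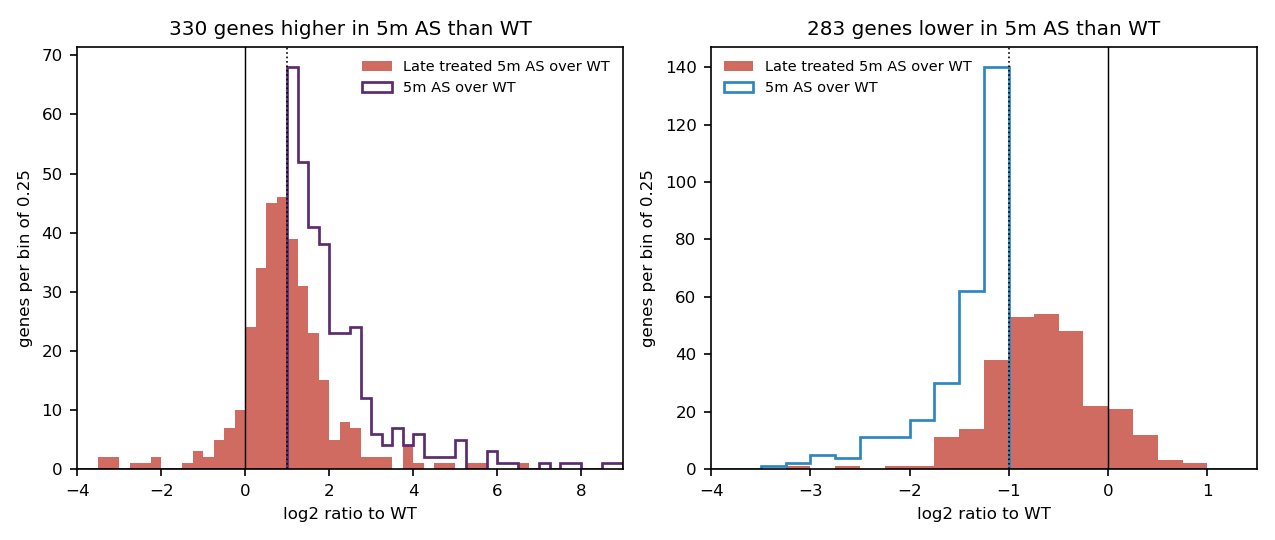
Log2 ratio to WT of the 330 genes at least 2-fold higher (left) and the 283 genes at least 2-fold lower (right) in 5m AS than in WT. Red bars count genes by their ratio in the late treated library and outlines by their ratio in 5m AS, and the dotted line marks 2-fold. Since the genes were chosen by their ratio in 5m AS, all outlines lie past the line. Red bars nearer to 0 are in part built into that choice. On the left 145 genes and on the right 67 are still past the line, and Ighg2c, with no UMI in WT, is not drawn.

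Tubular injury genes held the largest ratio among the genes at level, that of Havcr1. Havcr1 stood at 21.1 scaled CPM in the late treated library, 94.0 in the early treated, 152 in 5m AS, 9.02 in 2m AS and 0.395 in WT. The late treated level was 53.5 times WT (36.6 to 81.4) and 0.139 times that of 5m AS. Lcn2, which encodes the iron-carrier binding protein lipocalin 2, had 15.8 scaled CPM in the late treated library, 129 in 5m AS and 0.512 in WT, a ratio to WT of 30.9 (22.1 to 44.7), although it was under the level of 20. Neither gene was near WT, and both were below 5m AS.

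Over all 330 higher disease genes, 43.9% were still 2-fold higher after late treatment. Of the 24 listed injury genes, 16 were 2-fold higher in 5m AS and 8 of these were still so, not far from that share. Besides the pair above these were Vcam1, Cd44, Spp1, Anxa1, S100a6 and Cp. Vcam1, a leukocyte adhesion molecule of failed-repair tubule cells, had 50.2 scaled CPM in the late treated library, 136 in 5m AS and 10.4 in WT. Spp1, which encodes the secreted phosphoprotein osteopontin, had 2225 in the late treated library, 6202 in 5m AS and 665 in WT, but its log2 ratio to the mixed library was -0.10. Cp, the copper-binding ferroxidase ceruloplasmin, had 39.7 in the late treated library, 95.7 in 5m AS and 12.3 in WT.

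Some other injury genes were near WT or below it. Tmsb10, an actin-binding peptide, had 122 scaled CPM in the late treated library, 492 in 5m AS and 115 in WT. Krt8 and Krt7, keratins of stressed and of distal epithelium, had ratios to WT of 0.762 and 0.623 on the main scale, and Krt8 turned to a log2 ratio of 0.06 with plain CPM. Clu, the chaperone clusterin, had a ratio of 0.872 that likewise turned to a log2 ratio of 0.25 with plain CPM. At the 1.5-fold mark 9 of the 17 injury genes at level were higher and 1 was lower, with 3.80% of all genes higher and 14.9% lower at that mark. Their median log2 ratio was 0.61 in the late treated library and 1.77 in 5m AS.

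Complement and fibrinogen genes made up much of the top of the ranking. Complement is a cascade of plasma proteins that tags cells for clearance, and fibrinogen, built from the products of Fga, Fgb and Fgg, is the clotting protein that the liver makes in the acute phase and that injured tubules can also make. C3, the central component, had 118 scaled CPM in the late treated library, 267 in the early treated, 387 in 5m AS, 24.3 in 2m AS and 12.0 in WT, a ratio to WT of 9.76 (9.09 to 10.5). C4b, a component of the classical pathway with a close paralog, had 45.7 in the late treated library, 53.4 in 5m AS and 7.33 in WT. For C4b the late treated and untreated levels were thus close together and both well above WT.

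Fgg had 31.2 scaled CPM in the late treated library, 54.1 in 5m AS and 3.69 in WT, a ratio to WT of 8.48 (7.43 to 9.70). Fga had 30.7 in the late treated library, 50.9 in 5m AS and 3.82 in WT. Fgb was below the level of 20, with 8.02 in the late treated library, 7.12 in 5m AS and 0.775 in WT. All 3 chains were therefore above WT in the same library. They share a chromosome, and their promoters are known to carry elements that answer interleukin-6. The 250 bases before the annotated start of Fgb and Fgg, the chains whose start is the same in RefSeq and GENCODE, are shown 5′ to 3′ on the gene's strand (RefSeq, GRCm38.p6), with the letters CTGGGA, the core of such an element, in capitals.
Fgb (chr3:83049864-83050113, minus strand): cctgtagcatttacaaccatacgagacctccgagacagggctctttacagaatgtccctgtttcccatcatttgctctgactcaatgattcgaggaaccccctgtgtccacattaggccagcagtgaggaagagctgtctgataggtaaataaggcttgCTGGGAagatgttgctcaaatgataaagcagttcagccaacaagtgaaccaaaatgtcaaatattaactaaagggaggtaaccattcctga
Fgg (chr3:83007474-83007723, plus strand): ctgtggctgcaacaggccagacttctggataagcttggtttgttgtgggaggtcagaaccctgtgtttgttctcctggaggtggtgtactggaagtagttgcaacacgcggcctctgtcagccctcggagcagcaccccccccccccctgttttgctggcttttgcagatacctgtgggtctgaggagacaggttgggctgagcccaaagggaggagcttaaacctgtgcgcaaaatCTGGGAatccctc
These letters occurred once in each of the 3 fibrinogen promoters, on either strand, and in 26.8% of the 27025 promoters of the same length. A match describes the sequence and does not show that a factor bound it.

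Of the 18 listed complement and acute phase genes, 9 were disease genes. The 5 still 2-fold higher were C3, C4b, Cfi, Fga and Fgg, beside 43.9% of all 330 higher disease genes. Serping1, C1ra and C1s1, which regulate or start the cascade, had ratios to WT between 1.72 and 1.90. Cfb, the protease of the alternative pathway, was on the other side, with 329 scaled CPM in the late treated library, 293 in 5m AS and 442 in WT, and its log2 ratio was 0.02 with plain CPM. The list median was 0.87 in the late treated library and 1.73 in 5m AS.

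**Figure D3:**
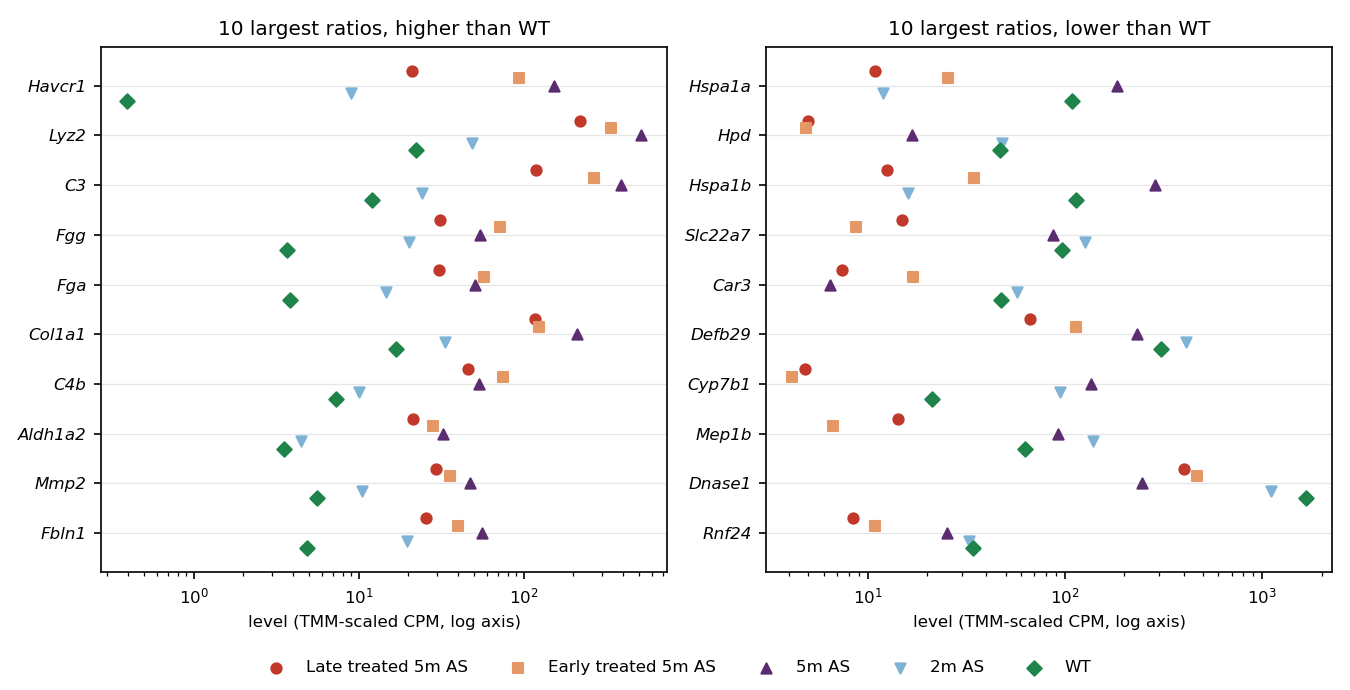
Levels (scaled CPM, log axis) of the 10 genes with the largest ratio in each direction, in the late treated, early treated, 5m AS, 2m AS and WT libraries, 1 point a library. On the left the late treated point lies between WT and 5m AS for all 10 genes. On the right Car3 and Dnase1 are low in the late treated library and 5m AS alike, while Hspa1a, Hspa1b and Slc22a7 are low in the late treated library and not in 5m AS.

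Scar tissue genes were higher as a group. Fibrillar collagens are the main protein of kidney scars and are made by fibroblasts and pericytes. Col1a1 had 117 scaled CPM in the late treated library, 124 in the early treated, 211 in 5m AS, 33.5 in 2m AS and 16.8 in WT, a ratio to WT of 6.95 (6.54 to 7.41). Col3a1 had 108 in the late treated library, 323 in 5m AS and 23.4 in WT, and Col1a2 had 131 in the late treated library, 314 in 5m AS and 47.3 in WT. The late treated kidney was thus between untreated and wild-type tissue for all 3.

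Of 23 matrix genes that were 2-fold higher in 5m AS, 16 were still so after late treatment, beside 43.9% of all 330 such genes. Of the 16, 10 reached the level of 20 in the late treated or the WT library. The rest entered through 5m AS, where they were high. Mmp2, a protease that cuts denatured collagen, had 29.5 scaled CPM in the late treated library, 47.0 in 5m AS and 5.60 in WT. Eln, which encodes elastin, had 22.3 in the late treated library, 33.2 in 5m AS and 5.27 in WT. Fn1, fibronectin, had 89.6 in the late treated library, 180 in 5m AS and 33.4 in WT. Timp1, an inhibitor of matrix proteases, reached 17.7 in the late treated library, below the level of 20, against 84.5 in 5m AS and 0.980 in WT, and Ltbp2, a protein of elastic fibres, reached 16.0 in the late treated library, 57.5 in 5m AS and 0.410 in WT.

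Connective tissue growth factors did not follow the collagens. Ccn1 had 36.8 scaled CPM in the late treated library, 103 in 5m AS and 63.1 in WT, and Ccn2 had 138 in the late treated library, 186 in 5m AS and 162 in WT, where Ccn2 turned to a log2 ratio of 0.22 with plain CPM. Timp3, which binds to matrix, was near WT with 1075 in the late treated library and 1040 in WT. In all, 13 of the 20 matrix genes at level were at least 1.5-fold higher and 1 was lower, beside 3.80% and 14.9% of all genes. Their median log2 ratio was 1.11 in the late treated library and 1.79 in 5m AS. The fibroblast marker list had 7 of 9 higher, and its summed level was 2076 scaled CPM in the late treated library, 4361 in 5m AS and 766 in WT. Mgp, matrix Gla protein, made up most of that sum with 1449 in the late treated library, 3303 in 5m AS and 417 in WT.

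Macrophage genes mark resident and infiltrating phagocytes alike. They were still off WT more often than those of any other list of 5 or more disease genes, at 14 of 15. At level in the late treated or the WT library were 9 of them, of which 8 were still 2-fold higher. The others entered through 5m AS, where they were high. The share over all 330 higher disease genes was 43.9%. Lyz2, the lysozyme of macrophages and other myeloid cells, had 220 scaled CPM in the late treated library, 337 in the early treated, 516 in 5m AS, 48.5 in 2m AS and 22.3 in WT, a ratio to WT of 9.82 (9.32 to 10.4). The complement C1q chains, which macrophages make, had ratios of 2.87 for C1qa, 2.42 for C1qb and 2.72 for C1qc. Csf1r, the receptor for the macrophage growth factor, had 35.4 in the late treated library, 71.5 in 5m AS and 22.6 in WT, and was the 1 disease gene of the list no longer 2-fold higher. All 9 macrophage genes at level were at least 1.5-fold higher, beside 3.80% of all genes. The list summed to 764 scaled CPM in the late treated library, 1699 in 5m AS and 232 in WT.

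Class II antigen presentation genes were likewise above WT. H2-Aa, H2-Ab1 and H2-Eb1, the chains that display peptides to helper T cells, had ratios of 2.38, 2.18 and 2.29, with 292 scaled CPM for H2-Aa in the late treated library, 607 in 5m AS and 122 in WT. Class I genes were closer to WT, with ratios of 1.13 for H2-K1 and 1.24 for H2-D1, and B2m, their shared light chain, had 649 in the late treated library and 376 in WT. Reads may be split between these related genes. The list median was 0.85 in the late treated library and 1.38 in 5m AS. At least 1.5-fold higher were 9 of 12, beside 3.80% of all genes.

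Chemokines, which recruit leukocytes, were mostly under the level of 20 and yet above WT in ratio. Ccl2, the main attractant of monocytes, had 13.2 scaled CPM in the late treated library, 59.5 in 5m AS and 0.892 in WT. Ccl8 had 10.6 in the late treated library, 23.8 in 5m AS and 0.424 in WT. Cxcl10, induced by interferon, was at level with 21.9 in the late treated library, 40.5 in 5m AS and 8.32 in WT. Of 13 disease genes on the chemokine list 7 were still 2-fold higher, beside 43.9% of all 330 higher disease genes. Of these 7 only Cxcl10 was at level, and the others entered through 5m AS, where they were high. No gene of the interferon list was a disease gene, and the median of that list was 0.36 in the late treated library.

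Lymphocyte genes were sparse. The 7 T cell markers summed to 17.5 scaled CPM in the late treated library, 26.8 in 5m AS and 9.14 in WT, and none reached the level of 20. The 4 neutrophil markers summed to 4.68 in the late treated library and 3.23 in WT. The B and plasma cell list summed to 65.8 in the late treated library, 435 in 5m AS and 28.1 in WT, led by Igkc and Ighm, the light and heavy chains of antibodies. Against the mixed library the log2 ratios of these 2 genes were -1.89 and -1.22, so their direction depended on the control.

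To see where in the section the residual RNA lay, spots were clustered into 15 regions, named here by their leading genes. A region led by Cd74, C3, Spp1, H2-Ab1 and Lyz2 took 275 spots of the late treated library (9.66%), 322 of 5m AS (16.2%) and 8 of WT (0.196%). Since immune and injury genes formed that region, its size is a description. It held 46.4% of the Havcr1 UMIs of the late treated library, 31.8% of the Lyz2 UMIs, 33.8% of the C3 UMIs and 21.4% of the Col1a1 UMIs. Havcr1 stood there at 144 scaled CPM in the late treated library, against 424 in 5m AS.

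The rest of these genes' RNA was spread over the other regions. The 11 regions with at least 20 spots in both libraries held 89.5% of the late treated and 99.1% of the WT spots. There Havcr1 ranged between 7.31 and 48.7 scaled CPM in the late treated library and was at most 1.47 in WT. These highest levels rested on 9 UMIs in the late treated library and 1 in WT. Lyz2 ranged between 89.5 and 522 in the late treated library and between 14.0 and 73.6 in WT, and was higher in the late treated library in every one of the 11. The lowest regional level of Lyz2 after late treatment was therefore above the highest in WT. Col1a1 ranged between 57.7 and 522 in the late treated library and between 9.95 and 197 in WT. In 1 region it was lower, at 97.4 in the late treated library against 197 in WT. That region had 75 late treated and 30 WT spots, with 18 and 15 UMIs of the gene.

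Several gene lists above WT over the whole section were above it in every region, but not all were. The podocyte median was above 0 in 10 of the 11 regions and the early proximal tubule median in 8. The macrophage median lay between 0.72 and 1.62 over the 11 regions, the fibroblast median between 0.57 and 1.52, the matrix median between 0.31 and 1.36, the complement median between 0.53 and 1.46, and the injury median between 0.02 and 0.93. None of these 5 lists had a median below 0 in any region. Standardising by region over these 11 regions left 85 genes higher and 188 lower, beside 98 and 198 over all spots. That count leaves out the region led by Cd74 and C3, which had too few WT spots.

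**Figure D4:**
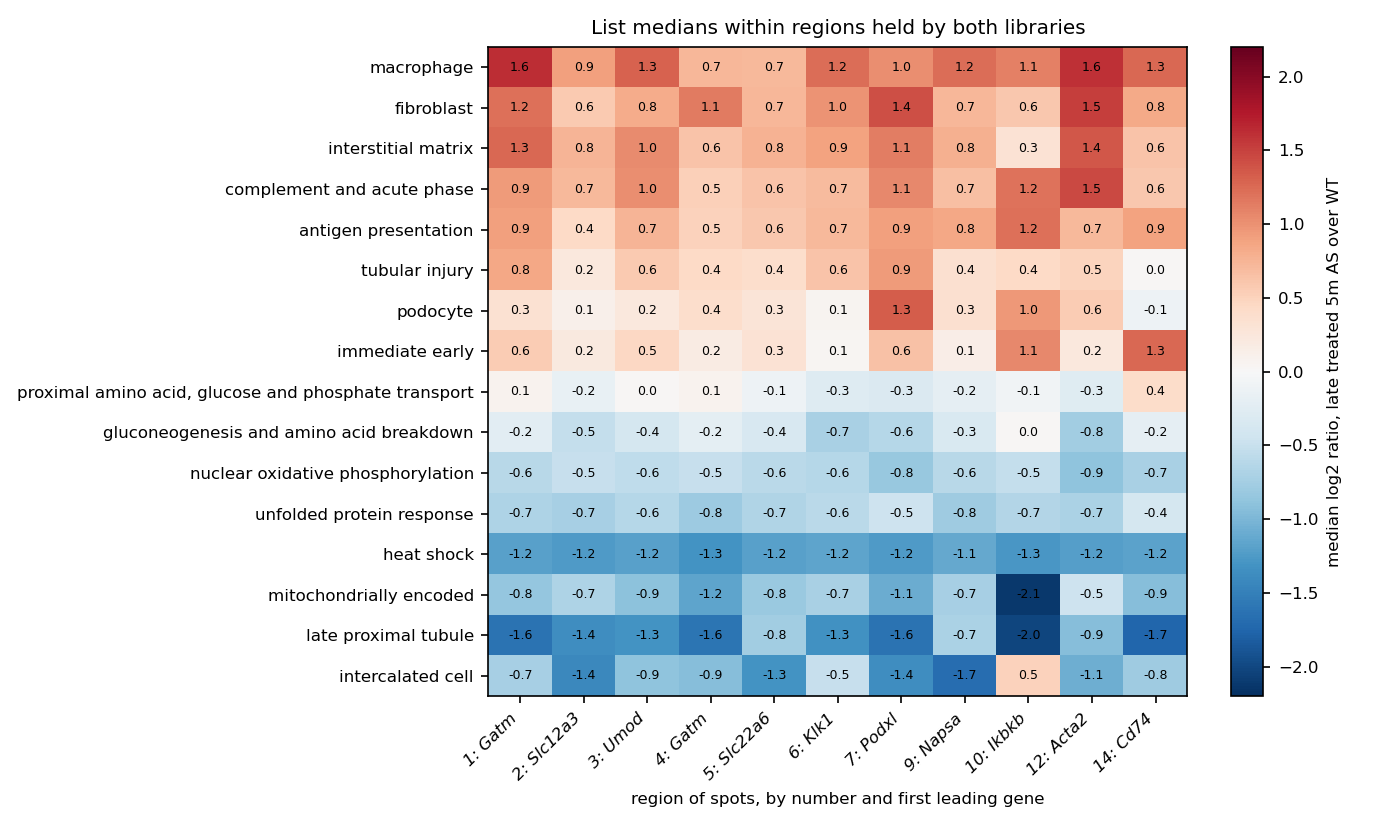
Median log2 ratio of late treated 5m AS over WT for 16 gene lists (rows) within the 11 regions of spots that both libraries held (columns, by number and first leading gene). The macrophage, fibroblast and matrix rows are above 0 in every region and the heat shock, late proximal tubule and unfolded protein response rows are below 0 in every region. A list whose genes helped to form a region is not independent of it.

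In the glomerulus, podocytes carry the slit diaphragm that holds back protein. Podxl, the charged coat protein podocalyxin, had 207 scaled CPM in the late treated library, 188 in the early treated, 108 in 5m AS, 76.4 in 2m AS and 126 in WT, a ratio to WT of 1.64 (1.60 to 1.68). Synpo, the actin-binding protein synaptopodin, had 35.9 in the late treated library, 29.7 in 5m AS and 22.8 in WT. Nes, an intermediate filament protein of podocytes, had 21.2 in the late treated library, 22.0 in 5m AS and 9.81 in WT. Of the 8 podocyte genes at level 6 were at least 1.5-fold higher and none was lower, beside 3.80% and 14.9% of all genes. Their median was 0.68 in the late treated library and 0.04 in 5m AS.

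The region led by Podxl held 7.80% of the late treated spots, 7.13% of the 5m AS spots and 9.14% of the WT spots. Podxl, which helped to form the region, stood there at 1537 scaled CPM in the late treated library, 618 in 5m AS and 586 in WT. The number of glomeruli cut by each section was not counted. Among basement membrane genes, Nid1, which links laminin to collagen IV, had 48.6 in the late treated library and 23.9 in WT, and Col4a1 and Col4a2, the chains of the early network, had ratios of 1.57 and 1.46. Laminins were within 1.3-fold of WT, with ratios of 1.13 for Lama5, 1.03 for Lamb1, 0.937 for Lamb2 and 1.29 for Lamc1, of which Lamb2 had a log2 ratio of 0.35 with plain CPM.

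Among lower genes, those of the late proximal tubule had the lowest list median with at least 3 members at level. This straight segment carries organic anion transporters and steroid and drug metabolism. Slc22a7, an organic anion transporter, had 14.9 scaled CPM in the late treated library, 8.75 in the early treated, 86.6 in 5m AS, 127 in 2m AS and 97.0 in WT, a ratio to WT of 0.153 (0.143 to 0.164). Cyp7b1, a sterol hydroxylase, had 4.84 in the late treated library, 4.13 in the early treated, 135 in 5m AS and 21.3 in WT. Napsa, an aspartic protease, had 391 in the late treated library, 1905 in 5m AS and 1003 in WT. The 2 treated libraries were low for Slc22a7, Cyp7b1 and Napsa and 5m AS was not, so they are not among the lower disease genes. Slc7a13 of the same list was such a gene and was still 2-fold lower. It had 297 scaled CPM in the late treated library, 361 in 5m AS and 726 in WT.

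All 6 late proximal tubule genes at level were at least 1.5-fold lower, beside 14.9% of all genes. Their median was -1.32 in the late treated library and -0.19 in 5m AS. The region led by Napsa and Slc7a13 held 46 late treated spots (1.62%), 20 of 5m AS and 413 of WT (10.1%), and a second one led by Scd1 and Serpina1f held 5 spots of the late treated library, 437 of 5m AS and 2 of WT. How much of this tissue each section contained cannot be told apart from the level of its genes. Within the 11 regions the list median lay between -2.02 and -0.70. Slc22a7 in the region led by Napsa was 209 scaled CPM in the late treated library, 191 in 5m AS and 441 in WT.

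Most genes known to be higher in male mouse kidney were below WT after late treatment. Slco1a1, an organic anion carrier, had 186 scaled CPM in the late treated library, 39.0 in 5m AS and 373 in WT. Odc1, the first enzyme of polyamine synthesis, had 716 in the late treated library, 289 in 5m AS and 1475 in WT. Kap, an androgen-regulated protein of the proximal tubule, had 32848 in the late treated library, 39232 in 5m AS and 74644 in WT. Of 8 genes 7 were at least 1.5-fold lower, beside 14.9% of all genes. The list median was -1.04 in the late treated library, -1.86 in 5m AS and -5.52 in the mixed library of females. By list median the late treated kidney thus stood between 5m AS and WT. The members did not move alike in the other Alport libraries, since Cyp7b1, which is also on this list, was above WT in 5m AS, and Kap had 128427 scaled CPM in 2m AS.

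Other genes were below WT in every 5-month Alport library. Dnase1, a secreted nuclease, had 399 scaled CPM in the late treated library, 468 in the early treated, 247 in 5m AS, 1104 in 2m AS and 1672 in WT, and was lower than WT in all 11 regions. Car3, a carbonic anhydrase and the only member of the adipocyte list at level, had 7.38 in the late treated library, 6.41 in 5m AS and 47.2 in WT, while the adipocyte genes Adipoq and Cidec had no UMI in either the late treated library or WT. Hpd, of tyrosine breakdown, had 5.01 in the late treated library, 4.86 in the early treated, 16.7 in 5m AS and 46.6 in WT. For Hpd the late treated level was also below that of 5m AS, with a counting interval of the ratio between 0.264 and 0.340.

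Intercalated cells of the collecting duct, which secrete acid or base, were still short of WT in most of their genes. Of the 10 listed genes that were 2-fold lower in 5m AS, 6 were still so, beside 23.7% of all 283 such genes. Slc26a4, the chloride and bicarbonate exchanger pendrin, had 51.0 scaled CPM in the late treated library, 15.7 in 5m AS and 115 in WT. Foxi1, the master transcription factor of this cell, had 16.3 in the late treated library, 15.9 in 5m AS and 42.1 in WT. Rhbg and Rhcg, ammonia channels, had ratios to WT of 0.469 and 0.455. In contrast Slc4a1, the anion exchanger of the acid-secreting type, had 35.9 in the late treated library, 10.2 in 5m AS and 28.3 in WT, and Aqp6, a water and anion channel of the same type, had 71.3 in the late treated library, 22.5 in 5m AS and 26.9 in WT. The list median was -1.09 in the late treated library and -1.74 in 5m AS.

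Within the renin-angiotensin system, renin and its converting enzyme were below WT. Ren1, the hormone of juxtaglomerular cells, had 84.0 scaled CPM in the late treated library, 63.2 in the early treated, 35.6 in 5m AS and 169 in WT. Ace, the angiotensin-converting enzyme, had 56.9 in the late treated library, 129 in 5m AS and 170 in WT, so it was further from WT after late treatment than without it. Agt, angiotensinogen, had 31.5 in the late treated library, 150 in 5m AS and 33.0 in WT, with a log2 ratio to WT of -0.07 that turned to 0.38 with plain CPM. Of the 8 genes of the list at level, 3 were at least 1.5-fold lower and none was higher, beside 14.9% and 3.80% of all genes. Their median of -0.23 was close to that of all genes and turned to 0.21 with plain CPM.

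Genes of oxidative phosphorylation were below WT in the late treated library and in 5m AS. Of 20 nuclear genes of oxidative phosphorylation 11 were at least 1.5-fold lower and none was higher, beside 14.9% and 3.80% of all genes. Their median was -0.64 in the late treated library and -0.56 in 5m AS. Ndufa4 and Cycs, of cytochrome oxidase and the electron shuttle cytochrome c, had ratios to WT of 0.445 and 0.453. Of 12 mitochondrially encoded genes 10 were lower, at a median of -0.88 in the late treated library and -0.90 in 5m AS, but 0.21 when the late treated library was set against the mixed one. WT had the highest mitochondrial share of the 6 libraries, and its part in this result was not tested. Of 13 glycolysis genes 3 were at least 1.5-fold lower and none was higher, beside 14.9% of all genes lower, and their median was -0.41 in the late treated library, 0.04 with plain CPM. Gapdh, among the lower members, had 748 scaled CPM in the late treated library, 1067 in 5m AS and 1638 in WT.

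Proximal tubule transport, which reclaims filtered nutrients, stood close to WT for the genes that were low in 5m AS. None of the 8 listed transporters of amino acids, glucose and phosphate that were 2-fold lower in 5m AS was still so. Over all 283 lower disease genes 23.7% were. The median log2 ratio of the 8 was -0.18 in the late treated library and -1.71 in 5m AS, by which they were chosen. Over all 18 listed transporters the median was 0.00 in the late treated library, 0.45 with plain CPM, and -0.95 in 5m AS. Slc6a19, the main carrier of neutral amino acids, had 407 scaled CPM in the late treated library, 182 in the early treated, 66.4 in 5m AS and 303 in WT. Slc5a12, a lactate carrier, had 36.0 in the late treated library, 7.46 in 5m AS and 29.6 in WT. Slc34a3, a phosphate carrier, had 40.7 in the late treated library, 9.50 in 5m AS and 40.3 in WT. Slc34a1, the main phosphate carrier of the kidney, had 4860 in the late treated library, 2358 in 5m AS and 6946 in WT, with a log2 ratio of -0.07 on plain CPM.

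Some transporters of the same list were nevertheless lower than WT where 5m AS was less so. Slc6a18, a glycine carrier, had 153 scaled CPM in the late treated library, 312 in 5m AS and 290 in WT. Slc3a1, the heavy chain of the cystine transporter, had 224 in the late treated library, 330 in 5m AS and 375 in WT. Slc13a1, a sulfate carrier, went the other way with 487 in the late treated library, 269 in 5m AS and 243 in WT. Over all 18 members 1 was at least 1.5-fold higher and 5 were lower, beside 3.80% and 14.9% of all genes.

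Gluconeogenesis and amino acid breakdown, also functions of the proximal tubule, had 11 lower disease genes. Hpd alone was still 2-fold lower, beside 23.7% of all 283 such genes. G6pc, the last enzyme of glucose release, had 240 scaled CPM in the late treated library, 34.6 in 5m AS and 166 in WT. Gatm, the first enzyme of creatine synthesis, had 718 in the late treated library, 179 in 5m AS and 391 in WT. Pck1, the rate-limiting enzyme of gluconeogenesis, was lower with 433 in the late treated library, 541 in 5m AS and 812 in WT. Of the 18 genes of the list at level, 6 were at least 1.5-fold lower and 1 was higher, beside 14.9% and 3.80% of all genes. At 2-fold 3 were lower, of which Hpd alone was a disease gene. The list median was -0.40 in the late treated library, turning to 0.05 with plain CPM, and -1.14 in 5m AS.

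**Figure D5:**
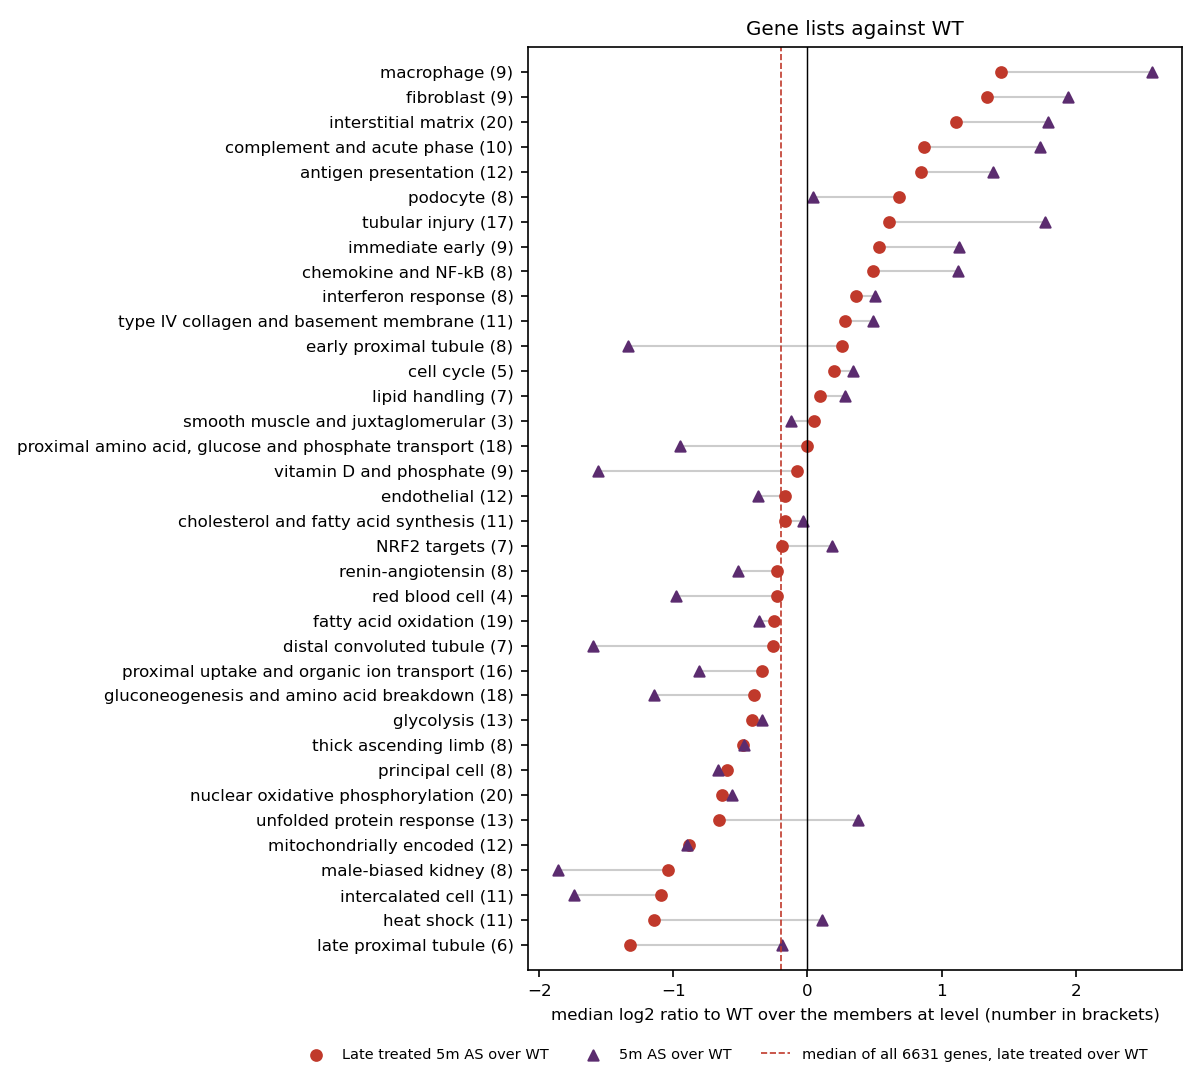
Median log2 ratio to WT of each gene list with at least 3 members at level, for the late treated library (red circles) and for 5m AS (purple triangles), sorted by the circles, with the number of members in brackets. The dashed line is the all-gene median of -0.20 for the late treated library. The late treated circle lies nearer to 0 than the 5m AS triangle for the macrophage, matrix and early proximal tubule lists, and further from 0 for the heat shock and late proximal tubule lists.

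Distal segments were mixed. Of 7 distal convoluted tubule genes that were 2-fold lower in 5m AS, S100g alone was still so, beside 23.7% of all 283 such genes. It had 2833 scaled CPM in the late treated library, 1144 in 5m AS and 5839 in WT. S100g encodes a calcium-binding protein. Slc12a3, the thiazide-sensitive salt carrier, had 583 in the late treated library, 229 in 5m AS and 699 in WT, and turned to a log2 ratio of 0.19 with plain CPM. In the thick ascending limb Umod, uromodulin, had 2214 in the late treated library, 4055 in 5m AS and 2233 in WT, a log2 ratio of -0.01 that turned to 0.44 with plain CPM, whereas Egf had 351 in the late treated library, 209 in 5m AS and 671 in WT. Scnn1b, a subunit of the sodium channel of principal cells, had 41.8 in the late treated library, 41.9 in 5m AS and 93.2 in WT.

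Vitamin D, which the kidney both activates and inactivates, governs calcium and phosphate uptake. Cyp24a1, which inactivates vitamin D and is induced by it and by the phosphate hormone Fgf23, had 239 scaled CPM in the late treated library, 63.4 in the early treated, 5.65 in 5m AS, 156 in 2m AS and 47.1 in WT. The late treated level was 5.09 times WT (4.90 to 5.28), and Cyp24a1 was the 1 gene at least 2-fold higher than WT there and at least 2-fold lower in 5m AS. In the 11 regions it was higher than WT in every one, between 59.2 and 400 in the late treated library and between 9.63 and 77.3 in WT. Cyp27b1, which activates vitamin D, was below the level of 20, with 11.9 in the late treated library, 6.43 in 5m AS and 0.936 in WT. The receptor Vdr had 164 in the late treated library, 76.9 in 5m AS and 174 in WT, and Kl, the Fgf23 co-receptor klotho, had 471 in the late treated library, 185 in 5m AS and 558 in WT, with both turning to log2 ratios of 0.36 and 0.20 with plain CPM.

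Heat shock genes were lower than WT in the late treated library without being disease genes in that direction. These chaperones refold damaged proteins and are switched on together by heat shock factor, which binds repeats of GAA and TTC. Hspa1a had 10.9 scaled CPM in the late treated library, 25.4 in the early treated, 184 in 5m AS, 11.9 in 2m AS and 108 in WT, a ratio to WT of 0.101 (0.0934 to 0.109). Its near-identical neighbour Hspa1b had 12.6 in the late treated library, 286 in 5m AS and 114 in WT, and reads may be split between the pair. Hsph1, a nucleotide exchange partner, had 60.1 in the late treated library, 218 in 5m AS and 202 in WT, and Hspb1, a small chaperone, had 23.2 in the late treated library, 229 in 5m AS and 44.3 in WT.

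Of 11 heat shock genes 10 were at least 1.5-fold lower, 7 of them at least 2-fold, beside 14.9% and 2.99% of all genes. The list median lay between -1.32 and -1.13 in the 11 regions. The list median against WT was -1.14 in the late treated library, -0.37 in the early treated, 0.11 in 5m AS, -1.08 in 2m AS and -0.92 in the mixed females. The libraries near 0 and above, 5m AS and WT itself, are the 2 that were counted with Space Ranger 1.2.1, and the part of version or of any handling shared by those libraries was not tested. The promoters of the pair Hspa1a and Hspa1b, which differed at 3 of 250 bases, and of Hspb1 are shown as above, with the elements GAANNTTC and TTCNNGAA, which are the same on both strands, in capitals.
Hspa1a (chr17:34972157-34972406, minus strand): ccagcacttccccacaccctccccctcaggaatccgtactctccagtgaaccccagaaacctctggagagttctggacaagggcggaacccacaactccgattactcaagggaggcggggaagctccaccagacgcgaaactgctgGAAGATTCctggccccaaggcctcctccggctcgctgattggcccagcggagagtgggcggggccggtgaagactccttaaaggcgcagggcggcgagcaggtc
Hspa1b (chr17:34959239-34959488, minus strand): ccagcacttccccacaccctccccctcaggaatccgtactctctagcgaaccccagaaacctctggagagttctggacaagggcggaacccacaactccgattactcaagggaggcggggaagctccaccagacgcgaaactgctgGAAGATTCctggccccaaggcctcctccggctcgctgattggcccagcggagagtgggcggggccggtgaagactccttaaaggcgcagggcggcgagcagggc
Hspb1 (chr5:135887669-135887918, plus strand): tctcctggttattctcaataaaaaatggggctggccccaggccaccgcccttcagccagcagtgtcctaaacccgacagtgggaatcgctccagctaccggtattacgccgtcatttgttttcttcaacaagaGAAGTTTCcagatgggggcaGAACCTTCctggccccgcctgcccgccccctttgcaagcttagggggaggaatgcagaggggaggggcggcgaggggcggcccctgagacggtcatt
Of the 9 heat shock genes matched to a RefSeq promoter, 6 held at least 1 such element (66.7%), as did 13.0% of the 27025 promoters.

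Unfolded protein response genes, which act in the endoplasmic reticulum, were likewise below WT in the late treated and 2m AS libraries by list median. Creld2 had 25.7 scaled CPM in the late treated library, 109 in 5m AS and 63.1 in WT. Hspa5, the chaperone BiP, had 254 in the late treated library, 614 in the early treated, 794 in 5m AS, 209 in 2m AS and 449 in WT. Of 13 genes at level 8 were at least 1.5-fold lower and none was higher, beside 14.9% and 3.80% of all genes. The list median was -0.66 in the late treated library, 0.14 in the early treated, 0.38 in 5m AS, -0.68 in 2m AS and -0.21 in the mixed females. Unlike the heat shock median, that of the early treated library was thus above WT.

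Of the 98 genes higher than WT by 2-fold in the late treated library, 7 had 5m AS near WT, as had 40 of the 198 lower ones. The share of all genes with 5m AS near WT was not counted. The names that follow were chosen after their values were seen. Plau, the urokinase protease, had 101 scaled CPM in the late treated library, 45.4 in the early treated, 44.3 in 5m AS and 40.3 in WT. Sema3g, a guidance factor of endothelium and podocytes, had 64.2 in the late treated library, 29.5 in 5m AS and 31.2 in WT. Per1, a clock gene, was lower with 16.2 in the late treated library, 36.2 in the early treated, 49.3 in 5m AS and 40.3 in WT. The hour at which kidneys were taken was not given in the sources used here.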

How the data were processed

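The deposited values were counts of UMIs per gene and spot, written by Space Ranger 1.3.1 for the late treated library and 1.2.1 for WT per the file headers, with the build mm10 per the submitters' processing notes. The strand setting of the counting is not given in the sources used here. All spots of a library were added up, and the sums were scaled with TMM factors from all 6 libraries (edgeR 4.0.16, R 4.3.3), which were 1.17 for the late treated library and 0.858 for WT. A floor of 3 counts came to 0.0447 scaled CPM in the late treated library and 0.0439 in WT. Floors and the 95% intervals of ratios (exact, from binomial bounds) cover counting error only. A gene entered with at least 20 scaled CPM in either library. Differences were counted at 2-fold, gene lists at 1.5-fold, and a log2 ratio within 0.32 of 0 was called near WT. No test was run, since each side had 1 library.

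Leiden clustering used the spots of 500 UMIs or more (scanpy 1.11.5, 2000 variable genes scaled within each library, 30 components, 15 neighbours, resolution 0.8), and regions were named by leading genes. IDs were matched to GENCODE M21, at 32158 of 32285. The count steps were tested on simulated data.

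The genes named were the type IV collagen genes, Havcr1 and Lcn2, the 10 largest ratios in each direction that differed 1.5-fold on plain CPM, median-of-ratios (DESeq2 1.42.0) and equally weighted spots, the 5 disease genes furthest off in 5m AS in each direction that were near WT in the late treated library, and up to 4 members of each list. The rankings skipped predicted, ribosomal, mitochondrial, immunoglobulin, haemoglobin and sex-chromosome marker genes. Further list members and the last genes of the report were named after their values were seen. The comparison, its members and the 41 gene lists were chosen with earlier results of these data known. Some genes that the rule would name are not reported here.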

Additional observations from a re-analysis of the deposited data

How the results depend on the processing

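The count of higher genes, 98 on the main scale, was 314 with plain CPM, 149 with each spot weighted equally, 337 with a filter of 5 scaled CPM, 43 with a filter of 50, 174 with a filter on the mean of the libraries, 215 against the mixed library, 252 at 1.5-fold and 34 at 3-fold. The count of lower genes, 198, was 31 with plain CPM, 570 against the mixed library, 987 at 1.5-fold and 22 at 3-fold. Disease genes still higher, 145, were 284 of 570 (49.8%) with plain CPM, 390 of 813 (48.0%) with a filter of 5, 65 of 162 (40.1%) with a filter of 50 and 221 of 330 (67.0%) at 1.5-fold, against 43.9% of the 330. Disease genes still lower, 67, were 11 of 95 (11.6%) with plain CPM, 44 of 231 (19.0%) without mitochondrially encoded genes, 42 of 206 (20.4%) with a filter of 50, 201 of 362 (55.5%) against the mixed library and 159 of 283 (56.2%) at 1.5-fold, against 23.7% of the 283. The cause of these shifts was not tested beyond what each threshold or filter fixes by construction.

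Among lists and genes past their fold mark, those that changed side did so against the mixed library, where log2 ratios of late treated over mixed were 0.21 for the mitochondrially encoded list, 4.69 for the male-biased list, -4.02 for Cyp4a14, -0.10 for Spp1, -1.22 for Ighm, -0.25 for Apoe, -1.89 for Igkc, 12.66 for Slco1a1, 0.99 for Odc1, 0.16 for mt-Nd5, 0.17 for Kap, 5.30 for Cyp4a12a, 8.91 for Slc7a13 and 1.42 for Cyp7b1. That library is of females of both genotypes. Smaller list medians changed sign with plain CPM, to 0.10 for proximal uptake, 0.05 for gluconeogenesis, 0.20 for fatty acid oxidation, 0.04 for glycolysis, 0.21 for renin-angiotensin, 0.36 for vitamin D, 0.28 for cholesterol synthesis, 0.26 for NRF2 targets, 0.19 for the distal convoluted tubule, 0.28 for endothelium and 0.22 for red blood cells.

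No paired analysis was possible because each side had 1 library and no replicate number. For the same reason no library was left out. Age of the WT mouse, Space Ranger version and the plane of each section cannot be told apart from the group. Genes under 20 scaled CPM, such as Lcn2, rest on fewer UMIs, and Havcr1 in WT on 27.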

Other observations

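The endothelial, antioxidant and fatty acid oxidation lists had medians near WT in the late treated library. None of the 12 endothelial genes at level was 1.5-fold off WT, with a list median of -0.17 in the late treated library and -0.37 in 5m AS, although the late treated median turned to 0.28 with plain CPM. NRF2 targets, which encode antioxidant enzymes, had 7 genes at level and none 1.5-fold off WT, at a median of -0.19 in the late treated library, 0.26 with plain CPM, and 0.18 in 5m AS. Fatty acid oxidation had 1 gene at least 1.5-fold higher and 2 lower of 19, beside 3.80% and 14.9% of all genes. Its median was -0.25 in the late treated library, 0.20 with plain CPM, and -0.36 in 5m AS. Immediate early genes, which cells switch on within minutes of a stimulus, were not near WT. At the 1.5-fold mark 4 of 9 were higher and none was lower, beside 3.80% and 14.9% of all genes. Their median was 0.53 in the late treated library and 1.13 in 5m AS.

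Cell cycle genes were sparse, with 5 of 18 at level, and these had a median of 0.20 in the late treated library and 0.34 in 5m AS. Of the 5 at level 1 was at least 1.5-fold higher, beside 3.80% of all genes. Over all 18, each with more than 3 UMIs, 11 were at least 1.5-fold higher and none was lower, at a median of 0.94 in the late treated library. That count rests mostly on genes below the level. The share of all genes with so few UMIs that were higher was not counted. Urothelial markers summed to 1.15 scaled CPM in the late treated library, 6.31 in 5m AS and 0.863 in WT. Red blood cell genes summed to 1378 scaled CPM in the late treated library, 857 in 5m AS and 1702 in WT.

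Of the 98 genes higher than WT, 22 were also above 5m AS, and of the 198 lower ones, 152 were also below 5m AS. Both groups were chosen by their late treated level, which favours levels further from WT than 5m AS. The share of all genes on each side of 5m AS was not counted. Among the 198 genes at level and at least 2-fold lower than WT in the late treated library, 3 were at least 2-fold higher in 5m AS than in WT.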
